A study of Mus musculus with 18 samples.

Results

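The hair follicle stem cell is the resident stem cell of the follicle bulge, and its transcriptome without an experimental perturbation was described from 4 RNA-seq libraries out of 18 in a mouse series on corticosterone and follicle quiescence. The 4 libraries were all those of the Sham and Control groups of stem cells (HFSC), 2 each. Sham mice were wild-type C57BL/6 animals that had undergone a sham operation. Control mice were wild-type animals on a mixed 129/C57BL/6 background that had been given tamoxifen by intraperitoneal injection for 6 days, as had the knockout mice of the same experiment. All were labelled female. The cells had been purified from skin by flow cytometry. The labels did not give the animals' age or say whether replicates came from separate animals, so the spread between libraries of a group may be technical. The 2 groups differed in strain background, operation, tamoxifen and experiment at once, and the effects of these cannot be told apart. The other 6 HFSC libraries, used below only to see whether levels carried over, came from adrenalectomized mice (ADX), adrenalectomized mice fed corticosterone (ADX+CORT) and mice in which the glucocorticoid receptor was deleted by a Cre under the Pdgfra promoter, which is active in dermal cells (GR KO: Pdgfra-CreER, GR fl/fl, tamoxifen).

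Bulge stem cells are basal keratinocytes that rest for most of the hair cycle. They are held at rest by BMP signals and are activated by WNT signals, and they both receive signals from and send signals to the dermal papilla, nerves, muscle and epidermis around them. They are anchored to the basement membrane by integrins and hemidesmosomes, and CD34, keratin 15 and the transcription factors SOX9, LHX2, NFATC1 and TCF7L1 are the classical features by which they are recognised.

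The libraries held 14288209 to 33014976 counts over 27933 genes. Levels are given as CPM, the counts of a gene relative to the scaled library size, and genes are compared with each other only as CPM per kilobase of exon, the mean of the 4 libraries. The summed CPM of a gene list is compared between libraries, not between lists. A gene was called detected when it had at least 10 CPM in each of the 4 libraries, and of similar level when its highest CPM was at most 2 times its lowest. Means carry the SD over the 4 libraries.

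Sex chromosome genes went against the label of 1 group. Xist, the RNA that silences one X chromosome in female cells, had 2770 and 2096 counts in the Sham libraries but 0 and 3 in the Control libraries. The Y-linked gene Eif2s3y had 0 counts in both Sham libraries and 1090 and 1252 in the Control libraries, and Kdm5d, Uty and Ddx3y likewise had 0 counts in both Sham libraries and 490 or more in both Control libraries. The 4 ADX and ADX+CORT libraries resembled Sham, with 2239 to 3588 Xist counts and no Y-linked counts, and the 2 GR KO libraries resembled Control, with 0 and 2 Xist counts. The Control libraries, labelled female, thus held Y-linked transcripts and almost no Xist, and every statement on agreement below is also an agreement across this difference. Counts of similar genes are therefore also given for the 2 Sham libraries alone and the 2 Control libraries alone.

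All 26 stem cell markers on the list used here were detected in all 4 libraries, and 23 were of similar level. Krt15 stood at 26681 and 32586 CPM in Sham and 31408 and 36208 in Control. Cd34, the surface sialomucin used to sort bulge cells, stood at 2527 and 2350 CPM in Sham and 1924 and 2143 in Control. Sox9, needed to form and keep the bulge, had 539 and 443 CPM in Sham and 639 and 467 in Control. The values of the groups overlapped for Krt15 and Sox9 and did not for Cd34, whose difference did not pass the test (adjusted p = 0.854, edgeR). Groups without overlap were common, at 38.6% of all detected genes. The WNT effectors Tcf7l1 (33.7 ± 2.24 CPM, SD, n = 4) and Tcf7l2 (66.8 ± 2.12 CPM) varied least among the markers, with a highest to lowest ratio of 1.17 and 1.08. Lhx2 and Nfatc1 lay near the limit of similarity, at ratios of 1.95 and 1.93, and both were highest in the first Sham library (481 and 712 CPM) and lower in the other 3 (247 to 373 and 369 to 470 CPM). The 3 markers outside the limit were Gas1, a hedgehog co-receptor (ratio 2.05), the matrix protein gene Npnt (2.54), whose product anchors the arrector muscle, and Fgf18, a factor of resting follicles (2.78). Fgf18 had 83.0 and 86.9 CPM in Sham and 31.3 and 45.0 in Control, without overlap, yet its difference did not pass the test (log2 difference -1.15, 95% interval -1.88 to -0.43, adjusted p = 0.22).

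Markers of other cell types were low in part and uneven in part. None of the markers of endothelium (7 genes), melanocytes (7), Merkel cells (5), adipocytes (5), skeletal muscle (5) or red cells (5) was detected in all 4 libraries. Atoh1 and Adipoq, which define Merkel cells and adipocytes, had no count in any of the 4. Of 12 hair germ and matrix markers 4 were detected, led by Gata3. Cdh3 was among them, with 84.5 and 42.9 CPM in Sham and 75.4 and 45.2 in Control. It was of similar level (ratio 1.97), while Shh had no count in any of the 4. Differentiated epidermis was present at a clear level, with 8 of 9 markers detected. Its list summed to 4230 and 5929 CPM in Sham and 3479 and 4189 in Control. The 26 genes of the stem cell list summed to 60805 to 67140 CPM, of which Krt15 alone made up 26681 to 36208. The lists differ in number and length of genes, so these sums do not give proportions of cells. The immune list was the least alike between the groups. Its 12 genes summed to 77.4 and 102 CPM in Sham and 3806 and 3797 in Control, and 8 of the 12 passed the test, all higher in Control, beside 0.814% of all genes tested. H2-Ab1, an antigen-presenting class II gene, had 16.2 and 19.4 CPM in Sham and 909 and 1142 in Control (log2 difference 5.85, adjusted p = 9.5e-06). The T cell gene Cd3e stayed under 1 CPM in all 4. Without overlap and higher in Control were also the sums of the sebaceous list (305 and 322 against 647 and 792 CPM), the melanocyte list (12.6 and 16.7 against 48.3 or more), the endothelial list (2.41 and 9.75 against 54.8 and 43.3) and the infundibulum and isthmus list (2114 and 2528 against 3814 and 6126), besides those of dermal papilla, Merkel and Schwann cells. The sums of the differentiated epidermis, companion layer and skeletal muscle lists were lower in both Control libraries than in either Sham library. Among single detected genes, 38.6% did not overlap between the groups, and the sums themselves were not tested. The Merkel sums (5.11 to 8.22 CPM) and the skeletal muscle sums (1.23 to 7.11 CPM) were near the floor. In bulk RNA, more cells of a type and more RNA per cell cannot be told apart, and the part of such cells in any level given below was not tested.

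**Figure D1:**
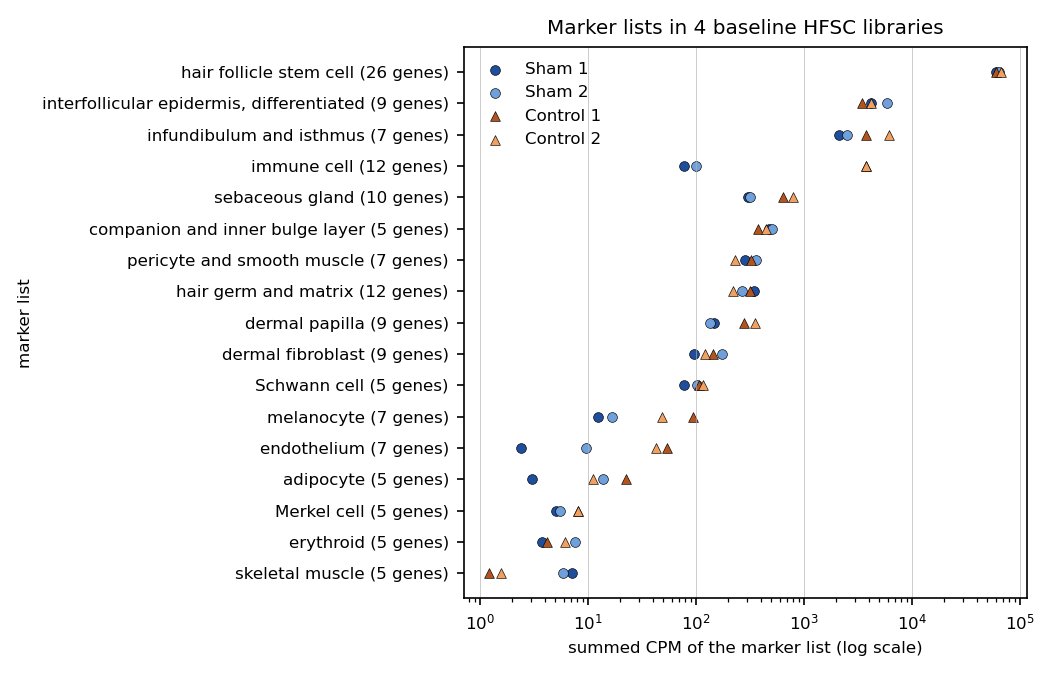
Summed CPM of each marker list (horizontal log axis) in the Sham (circles) and Control (triangles) libraries of baseline stem cells, 1 point per library. The stem cell list lies between 60805 and 67140 CPM in all 4, while the immune list lies at 77.4 and 102 CPM in Sham and 3806 and 3797 CPM in Control. Lists differ in number and length of genes, so only libraries within a list are compared.

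Of the 18087 genes with a count in any of the 4 libraries, 8579 were detected, and 7603 of these (88.6%) were of similar level. Within the 2 Sham libraries alone 8986 genes met both conditions, and within the 2 Control libraries alone 8586. A ratio of at most 2 in 4 libraries does not show that the groups are equal, and the interval of the difference is given as a description of precision. For 6024 of the 7603 genes (79.2%) the 95% interval of the Control minus Sham difference from edgeR lay wholly within 2-fold either way, and such genes are called bounded below. The interval rests on the same libraries as the ratio and is no independent check of agreement. The share over all genes tested, which include many low ones, was 41.6%. Between pairs of libraries the median fold difference over detected genes ranged from 1.15 (the 2 Sham libraries) to 1.29 (Sham 1 and Control 2), and 94.6% to 99.2% of genes lay within 2-fold. The 2 Control libraries differed from each other by a median of 1.27-fold, more than Sham 1 did from Control 1 (1.16-fold). The pairs differ in depth, since Control 2 was the deepest library. Agreement was greatest at middle levels. The share of similar genes was 83.4% at a mean of 10 to 30 CPM and 93.6% both at 100 to 300 and at 300 to 1000 CPM. From 1000 CPM up it was 88.6% (78 of 88 genes). Genes under 10 CPM in any of the 4 libraries are left out, so some uneven genes of low mean are missing from these shares. The limit cut through a continuum, with Arhgap24, Trio and Atxn7 just inside it and Lgals1, Tmem159 and Nudt16 just outside.

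The most abundant transcripts were those of a basal keratinocyte, joined by that of a lipid carrier. Krt15, which encodes the type I keratin typical of the bulge, was the highest gene in every library on the CPM scale and took 2.71% and 3.23% of the counts in Sham and 3.20% and 3.29% in Control. It was also first per kilobase, at 17952 CPM per kilobase. Apoe, whose product carries cholesterol and other lipids, followed at 12734 CPM per kilobase, with 25469 and 28657 CPM in Sham and 23349 and 31430 in Control. The estimated log2 difference of Apoe was small (0.02). Its interval, -0.54 to 0.57, was bounded but leaves room for a modest difference either way. After this pair the level dropped to Krt5 with 3702 and Krt14 with 2790 CPM per kilobase, the keratins that pair to form the filaments of basal cells. The order of Krt5, Mt1, Anxa8, S100a6 and Fth1, at 3702 to 3002 CPM per kilobase, is not separated beyond the spread between libraries.

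**Figure D2:**
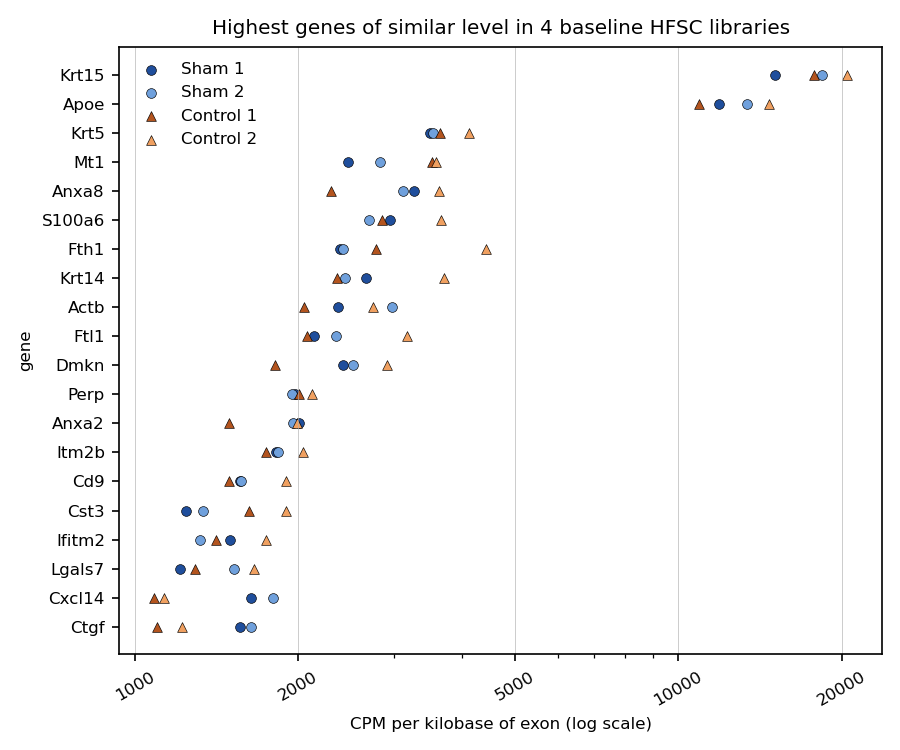
The 20 highest genes of similar level, as CPM per kilobase of exon on a log axis, with 1 point per library (Sham circles, Control triangles). Krt15 (mean 17952) and Apoe (12734) stand apart from the rest, which begin with Krt5 (3702), and the 4 points of Perp nearly coincide.

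Several of the 20 genes encode metal-binding proteins. The metallothionein Mt1 had 1334 and 1526 CPM in Sham and 1899 and 1938 in Control, and the ferritin heavy chain Fth1 had 2067 and 2094 in Sham and 2402 and 3835 in Control. Both were higher in both Control libraries and neither passed the test (adjusted p = 0.75 and 0.528). The ferritin light chain Ftl1 had overlapping groups and a bounded difference (2356 ± 492 CPM). Calcium and membrane binding proteins were represented by Anxa8 (5784 ± 1055 CPM), Anxa2 (6940 ± 930 CPM) and S100a6 (4153 ± 583 CPM), all with overlapping groups and bounded. Perp, a desmosome protein under p63 control, was the most even of the 20, with 3755 and 3700 CPM in Sham and 3811 and 4028 in Control, a ratio of 1.09. Itm2b, a membrane protein whose fragments are released from the cell, followed with a ratio of 1.17. Dmkn and Lgals7, better known from upper epidermis, were also among the 20, at 2416 and 1421 CPM per kilobase, and Lgals7 is a marker on the differentiated epidermis list above.

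Of these 20 genes 16 were bounded. The 4 that were not were Mt1, Fth1, Cxcl14 and Ctgf. Over all 10 HFSC libraries, ADX, ADX+CORT and GR KO included, 8 of the 20 stayed within 2-fold (Apoe, Actb, Perp, Anxa2, Itm2b, Cd9, Cst3 and Ifitm2), beside 4040 of the 7603 similar genes (53.1%). Krt15 was not among them: its lowest value was 11439 CPM, in the first ADX library, against 26681 CPM or more in the baseline libraries. Without the length term, 14 of the 20 stayed among the 20 highest similar genes.

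Promoters of these genes were examined for the TATA box letters TATAAA, because the highest and the steadiest genes can be compared in this respect. In the RefSeq promoter table (GRCm38.p6), the 250 bases before the start held TATAAA on either strand in 11.9% of 17997 genes matched by symbol. The share was 5.44% of 5961 matched genes of similar level, 6.81% of 764 that were detected and not of similar level, and 2 of 16 matched among the 20 highest (Anxa2 and Ifitm2). Krt15, Actb, Perp and Ctgf were not matched. The 120 bases before the start of Anxa2, whose TATAAA (in capitals) begins 17 bases before the start, are shown beside those of Apoe and Krt5, which had no match in 250 bases.
Anxa2, GRCm38.p6 chr9:69453563-69453682, plus strand: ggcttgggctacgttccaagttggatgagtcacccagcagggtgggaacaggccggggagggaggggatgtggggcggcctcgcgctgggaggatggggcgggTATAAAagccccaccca
Apoe, GRCm38.p6 chr7:19699189-19699308, minus strand: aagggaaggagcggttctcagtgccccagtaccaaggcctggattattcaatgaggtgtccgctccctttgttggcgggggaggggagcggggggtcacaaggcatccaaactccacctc
Krt5, GRCm38.p6 chr15:101712906-101713025, minus strand: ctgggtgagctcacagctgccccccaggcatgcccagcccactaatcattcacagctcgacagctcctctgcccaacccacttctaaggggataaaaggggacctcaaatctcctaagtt
Each is written 5′ to 3′ on the strand of the gene and ends at the base before the RefSeq start. The deposited Anxa2 gene begins 63 bases before that start, so the marked letters lie inside the deposited gene. For Apoe the RefSeq and deposited starts coincide, and for Krt5 they differ by 14 bases. These are matches of letters in a fixed window, and no measurement here bears on the use of the motif.

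Secreted factors had a lower share of similar genes than receptors or transcription factors. Of 496 genes on the lists for ligands, antagonists, carriers and matrix proteins, 144 were detected and 93 (64.6%) were of similar level, against 88.6% of all detected genes, and the median highest to lowest ratio was 1.73 against 1.49. Within the 2 Sham libraries alone 143 secreted genes were of similar level, and within the 2 Control libraries alone 148. Over all 10 HFSC libraries 22 of the 93 (23.7%) stayed within 2-fold, compared with 53.1% of all similar genes. After Apoe, the highest were Cst3, a cysteine protease inhibitor (1524 CPM per kilobase), the chemokine Cxcl14 (1412) and the matricellular gene Ctgf (1380), a target of YAP. Cxcl14 had 2981 and 3268 CPM in Sham and 1978 and 2066 in Control. Ctgf had 4467 and 4677 CPM in Sham and 3147 and 3499 in Control. Both were lower in both Control libraries, by less than 2-fold and without passing the test (adjusted p = 0.501 and 0.773). Cyr61, the other CCN gene detected, was also similar, at a ratio of 1.88. More even were Mif, a cytokine (549 ± 64.3 CPM), Gsn, an actin-severing protein with a plasma form (3120 ± 433 CPM), Ecm1 (1923 ± 214 CPM) and the heparin-binding growth factor Ptn (2363 ± 280 CPM), all bounded. Postn, a matrix protein and stem cell marker, fell short of that, with 8979 and 8840 CPM in Sham and 6607 and 5242 in Control.

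The highest genes on the list of BMP and activin antagonists stood above every detected BMP ligand. In the following families, members that are not among the genes listed above were chosen after their values were seen. All 8 detected members of the 16 BMP and activin antagonists were of similar level, 5 of them bounded. Their median ratio was 1.43, beside 1.49 over all detected genes, of which 88.6% were of similar level. Over all 10 HFSC libraries 3 of the 8 stayed within 2-fold. Sostdc1, which binds BMPs and WNT co-receptors, had 947 and 971 CPM in Sham and 1385 and 873 in Control. Fst, which traps activin, had 437 and 428 CPM in Sham and 579 and 580 in Control, and stayed within 2-fold in all 10 HFSC libraries. Grem1, a BMP antagonist, had 787 and 610 CPM in Sham and 667 and 506 in Control. Their levels per kilobase, 596 for Sostdc1, 277 for Nbl1, 217 for Fst and 155 for Grem1, were above that of every detected BMP ligand. Of 21 BMP and GDF ligands 3 were detected, Gdf10 at 8.79, Bmp7 at 8.17 and Bmp2 at 6.94 CPM per kilobase, and Bmp7 exceeded the ratio limit (2.08). On the WNT side, Dkk3 (741 ± 82.3 CPM) and the decoy Sfrp1 (619 to 922 CPM) were of similar level, while Wif1 and Dkkl1 were not. Wif1 was higher in Control, with 108 and 81.5 CPM in Sham against 206 and 227 (adjusted p = 0.0473, edgeR). Wif1 is also a dermal papilla marker, and the 8 other genes of that list summed to 40.3 and 54.0 CPM in Sham and 77.4 and 130 in Control. The defining papilla gene Corin had at most 0.117 CPM.

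Of 19 WNT ligands 4 were detected, and all 4 were of similar level: Wnt4 (84.7 to 131 CPM), Wnt10a (43.5 to 66.6), Wnt5b (21.5 to 32.4) and Wnt7b (24.9 to 45.9). Wnt3, below the detection limit, was lower in Control, with 20.3 and 43.5 CPM in Sham against 6.59 and 4.26 (log2 difference -2.56, adjusted p = 0.0108). This call was lost without Sham 2 (adjusted p = 0.0770) and without Control 2 (0.146). No hedgehog ligand was detected, and Shh and Ihh had no count. Of the 3 detected TGF-beta and activin ligands, Tgfb3 (28.5 to 56.1 CPM) and Tgfb2 (14.2 to 22.5 CPM) were of similar level and Lefty1, the highest per kilobase, was not (ratio 2.60). All 4 latent TGF-beta binding proteins, which hold the inactive ligand in the matrix, were detected, and Ltbp3 (139 to 178 CPM) and Ltbp4 (182 to 226 CPM) varied little. Pdgfa, a ligand for dermal cells, had 308 and 262 CPM in Sham and 195 and 208 in Control.

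Neurotrophins and axon guidance factors were less even, with 5 of 10 detected genes of similar level and a median ratio of 1.93. The neurotrophin Ntf5 had 47.0 and 46.6 CPM in Sham and 44.7 and 45.1 in Control, a ratio of 1.05, and the guidance cue Sema3e had 359 to 419 CPM, while Pthlh, a hormone-like peptide gene, exceeded the limit (ratio 3.30). Nrtn, a ligand of the GDNF family, was the highest secreted gene per kilobase that was not of similar level (844 CPM per kilobase), because Control 2 stood at 1354 CPM and the other 3 libraries at 646 to 784. Angptl7 (ratio 2.82), Apoc1 (2.25) and Igfbp3 (2.93) followed, and in Angptl7 the highest library was again Control 2. Of 60 interleukins and other cytokines 6 were detected, and all 6 were of similar level, among them Il34, a ligand of the CSF1 receptor (58.3 to 92.4 CPM). Of 40 chemokines 5 were detected. Of the 28 chemokines tested 8 passed the test, all higher in Control, beside 0.814% of all genes tested, and the immune list was also higher there.

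The vitamin K-dependent ligand Gas6, after which the series is named, was among the even genes. It had 288 and 335 CPM in Sham and 289 and 335 in Control, a ratio of 1.17, at 120 CPM per kilobase. The related ligand Pros1 was at 16.8 CPM per kilobase. All 3 receptors of these ligands were detected and of similar level: Axl at 118 to 160 CPM, Mertk at 39.5 to 74.2 and Tyro3 at 20.6 to 35.2. Per kilobase Axl (27.4) was above Mertk (12.3) and Tyro3 (4.66). The receptor of corticosterone, Nr3c1, had 421 and 400 CPM in Sham and 257 and 338 in Control, and was of similar level (ratio 1.63) and bounded.

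Among matrix and adhesion genes, those of the hemidesmosome were about as even as all detected genes, with a median ratio of 1.45 against 1.49. All 9 hemidesmosome genes were detected and of similar level, beside 88.6% of all detected genes, and 8 were bounded. Col17a1, the transmembrane collagen that ties the stem cell to its niche, had 3713 and 3111 CPM in Sham and 3012 and 2410 in Control. Its linker Dst had 1836 and 1489 CPM in Sham and 2000 and 1455 in Control. Lamb3, a chain of laminin-332, had 394 to 600 CPM, and Lama3 had 161 to 234 CPM. Itga6 and Itgb4, the integrin that binds it, had 167 to 238 and 241 to 432 CPM, and the values of both were lowest in Control 2. Egfl6, a matrix protein of the upper bulge, had 232 to 316 CPM. The wider list of laminins and basement membrane genes had 9 of 14 detected genes of similar level (64.3%), and integrins had 8 of 10 (80%). Both shares were below the 88.6% of all detected genes. Matricellular proteins and proteoglycans were less even still, with 8 of 18 detected genes of similar level.

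Receptors and surface proteins agreed better than secreted factors. Of 347 genes 159 were detected and 127 (79.9%) were of similar level, with a median ratio of 1.61, and 95 of the 127 were bounded. Their share within 2-fold over all 10 HFSC libraries was 32.3%. The tetraspanin Cd9 led with 1631 CPM per kilobase and had 3193 and 3209 CPM in Sham and 3052 and 3884 in Control. The heparan sulfate proteoglycans Sdc4 (1084 ± 121 CPM) and Sdc1 (1120 ± 106 CPM), co-receptors of many growth factors, stood on either side of Cd34 per kilobase (426, 294 and 307). Efna1, a membrane-bound ephrin, was even, with 518 and 488 CPM in Sham and 465 and 542 in Control and a log2 difference of 0.00 (-0.44 to 0.44). Of 22 Eph receptors and ephrins 12 were detected and 11 were of similar level. Cd81, Epcam and Cd200 completed the adhesion group, and Cd200, an inhibitor of immune cells, was near the limit (ratio 1.96) because Control 2 was high. Rpsa, also counted here, is a laminin receptor and a ribosomal protein.

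**Figure D3:**
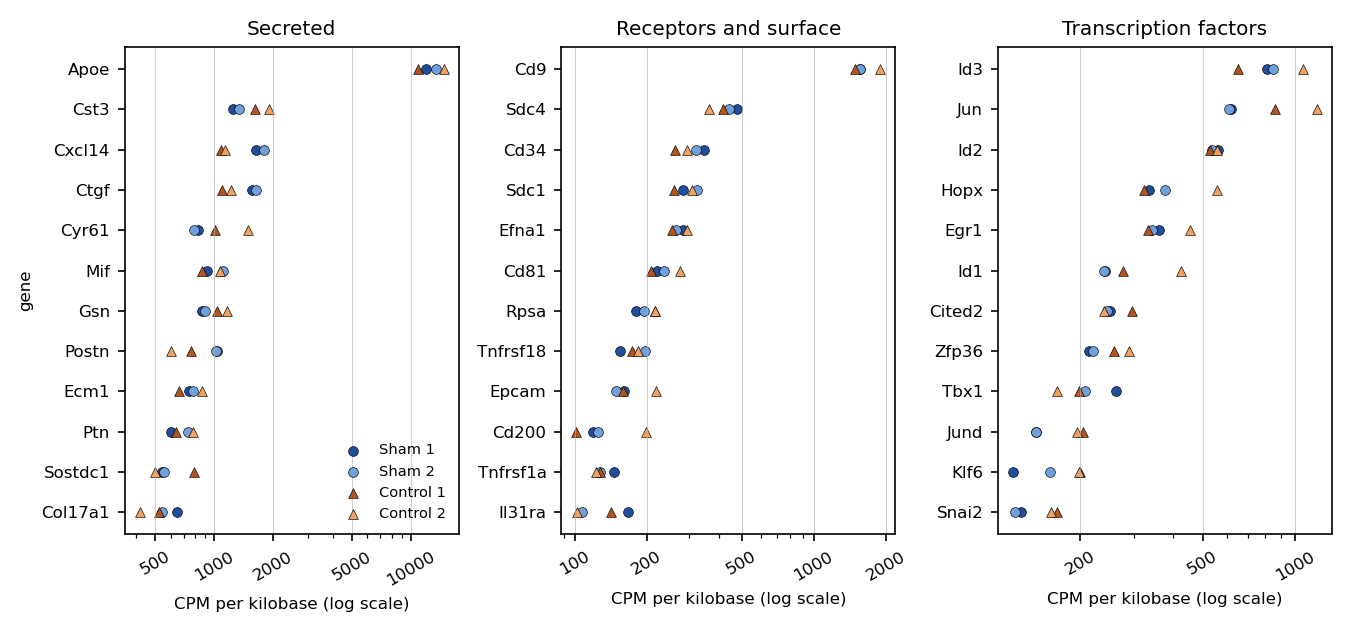
The 12 highest genes of similar level on the lists of secreted factors, of receptors and surface proteins, and of transcription factors. Values are CPM per kilobase on log axes with a different range in each panel (Sham circles, Control triangles, 1 point per library). The 4 points of Id2 nearly coincide (ratio 1.07), while those of Jun (1.93), Cyr61 (1.88) and Cd200 (1.96) spread to near the limit of 2.

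Among cytokine and TNF receptors 25 of 27 detected genes were of similar level. Tnfrsf18 had 237 to 300 CPM, Tnfrsf1a, the main TNF receptor, had 319 to 378, and Il11ra1 had 352 to 405. Il31ra, a receptor for the itch cytokine, had 613 and 393 CPM in Sham and 522 and 373 in Control. For BMP signals, Bmpr1a, the type I receptor needed for quiescence, had 115 and 96.3 CPM in Sham and 85.7 and 70.5 in Control, and 8 of 10 detected receptors of the superfamily were of similar level. For WNT signals 17 of 21 receptors were detected and 13 were of similar level. Fzd2 was the highest, with 334 to 465 CPM, and Lgr5, an R-spondin receptor of bulge and hair germ, had 319 and 319 CPM in Sham and 406 and 227 in Control. The related Lgr6 and Lgr4 had 108 to 167 and 96.9 to 136 CPM.

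Receptors of the EGF and FGF families were detected more often than genes on the lists of their ligands, 3 of 4 against 1 of 11 and 3 of 5 against 3 of 24. The FGF list is led per kilobase by Fgfbp1, the gene of an FGF-binding protein, so its counts are not of ligands alone. Egfr had 342 and 315 CPM in Sham and 362 and 280 in Control, while Hbegf, the ligand detected, was not of similar level. All 3 detected FGF receptors, Fgfr1, Fgfr2 and Fgfr3, were of similar level and bounded. None of the 9 receptors for PDGF, VEGF, KIT ligand and CSF1 was detected in all 4 libraries. Their sum was 2.23 and 11.7 CPM in Sham and 73.1 and 59.3 in Control. Csf1r, also on the immune list, had 0 and 1.98 CPM in Sham and 36.7 and 36.5 in Control. Of the 9 genes 1 passed the test, higher in Control, beside 0.814% of all genes tested. All 5 detected Notch genes were similar, and the ligand Jag2 was the highest per kilobase (31.6). The hedgehog receptors were less even, with 2 of 5 similar (Boc and Smo). Ramp1, a part of the CGRP receptor, had 114 and 123 CPM in Sham and 40.5 and 57.8 in Control. It did not overlap between the groups and did not pass the test (adjusted p = 0.137).

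Of 538 genes on the lists of transcription factors 233 were detected and 185 (79.4%) were of similar level, with a median ratio of 1.56. Of these, 137 were bounded. The lists go by gene family and hold zinc finger genes such as Zfp36, so membership does not show that a gene acts on transcription. Over all 10 HFSC libraries 88 of the 185 (47.6%) stayed within 2-fold. The highest were immediate BMP targets and immediate early genes. Id3 had 1449 and 1520 CPM in Sham and 1169 and 1905 in Control. Id2 had 715 and 683 CPM in Sham and 670 and 707 in Control, a ratio of 1.07. Id1 had 280 and 278 CPM in Sham and 319 and 495 in Control. The ID proteins hold back differentiation by binding E proteins, and all 5 detected BMP targets on the list were of similar level. Their mediators Smad1 and Smad4 had 160 to 219 and 62.2 to 84.9 CPM.

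Of 30 detected genes of the AP-1, ATF and CREB families 24 were of similar level, with a median ratio of 1.54, among them Jund (413 to 587 CPM) and Fosb (209 to 311 CPM). The 4 highest, all immediate early genes, were less even. Jun had 1965 and 1940 CPM in Sham and 2736 and 3746 in Control, just within the limit. Fos had 2447 and 2549 CPM in Sham and 3770 and 6022 in Control, Junb had 755 and 830 against 1664 and 2436, and Atf3 had 360 and 425 against 1179 and 1859. Only Atf3 of these passed the test (log2 difference 1.95, 1.18 to 2.72, adjusted p = 0.0191). The 21 immediate early genes together summed to 14678 and 15100 CPM in Sham and 21404 and 29423 in Control, and 3 passed the test, all higher in Control, beside 0.814% of all genes tested. Egr1, another of them, was even (1671 ± 248 CPM) and bounded. Among heat shock chaperones, which were measured alongside, 3 of 12 passed, also higher in Control, beside the same 0.814%. Tissue handling induces both gene groups, and its part in these levels was not tested. Tsc22d3, a glucocorticoid-induced leucine zipper gene, had 273 and 363 CPM in Sham and 794 and 1140 in Control and did not pass the test (adjusted p = 0.536).

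Regulators of epithelial identity were mostly of similar level, as were 88.6% of all detected genes. Median ratios were 1.51 for the p53 family, 1.44 for AP-2 and Grainyhead and 1.42 for NFI and TEAD, beside 1.49 over all detected genes. Trp63, the master regulator of stratified epithelium, had 729 and 619 CPM in Sham and 773 and 468 in Control, and all 3 genes of the p53 family were of similar level, bounded and within 2-fold over all 10 HFSC libraries. All 8 detected genes of the AP-2 and Grainyhead families were of similar level, led by Tfap2b with 216 to 253 CPM. The NFI genes Nfix and Nfib, of which Nfib maintains the bulge state, had 627 to 717 and 669 to 1086 CPM, and all 6 detected NFI, TEAD and YAP genes were bounded. Hopx, a homeodomain protein of bulge cells, had 508 and 571 CPM in Sham and 491 and 846 in Control. Tbx1 (372 ± 69.3 CPM), Snai2 (295 ± 46.2 CPM) and Cited2 (506 ± 50.0 CPM) were also among the 12 highest. The vitamin D receptor Vdr, required for hair cycling, had 413 to 557 CPM, and 14 of 16 detected nuclear receptors were of similar level. SOX genes other than Sox9 and Sox4 that were detected exceeded the limit, and all 3 detected TCF/LEF genes were within it.

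Cell cycle genes differed by phase. Of 17 S phase genes 12 were detected and 9 were of similar level, with a summed level of 564 to 674 CPM, led by Pcna, the sliding clamp of DNA replication (89.5 to 130 CPM). Of 20 genes of the G2 and M phases 6 were detected and 1 (Aurkb) was of similar level, and their summed level was 171 to 349 CPM. Top2a, needed to separate chromosomes, had 30.9 CPM in Control 1 and 10.6 in Control 2, and both Sham libraries lay between them. Among inhibitors of the cycle, Cdkn1a had 141 to 242 CPM and Cdkn1b 68.5 to 113 CPM. Of the housekeeping lists, all 14 glycolysis genes, all 11 translation factors and 77 of 80 detected ribosomal protein genes were of similar level. The ribosomal protein list summed to 19206 and 21471 CPM in Sham and 23158 and 29531 in Control, without overlap, and none of its genes passed the test. Over all 10 HFSC libraries 8 of the 77 stayed within 2-fold, compared with 53.1% of all similar genes.

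To set the agreement beside the difference, Control was compared with Sham in a model over all 10 HFSC libraries. Of 15231 genes tested 128 (0.84%) passed an adjusted p of 0.05 in edgeR, 124 higher and 4 lower in Control (0.814% and 0.0263%). None of the 7603 similar genes was among them, which their choice by a small ratio in the same libraries largely fixed. At an unadjusted p of 0.05 there were 1382. Of the 128 genes 29 were detected in all 4 libraries, 57 had a mean under 1 CPM in Sham, 8 were immune markers and 4 were Y-linked. Those with the smallest p that were higher in Control were H2-Ab1, Lyz2, Cd209e and Laptm5, all genes of macrophages and dendritic cells. Lyz2 had 13.6 and 10.7 CPM in Sham and 429 and 431 in Control. The 4 that were lower were Xist, Myoc, Wnt3 and Spon2. Myoc, a secreted glycoprotein gene, had 209 and 176 CPM in Sham and 61.9 and 58.7 in Control (log2 difference -1.67, adjusted p = 0.0029). Spon2, a matrix protein gene, had 191 and 388 against 37.5 and 43.8, and its call (adjusted p = 0.0292) was lost without Sham 2, Control 1 or Control 2. Dct, which defines melanocytes, passed as well, higher in Control (5.76 and 8.76 against 34.3 and 24.1 CPM, adjusted p = 0.00961).

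**Figure D4:**
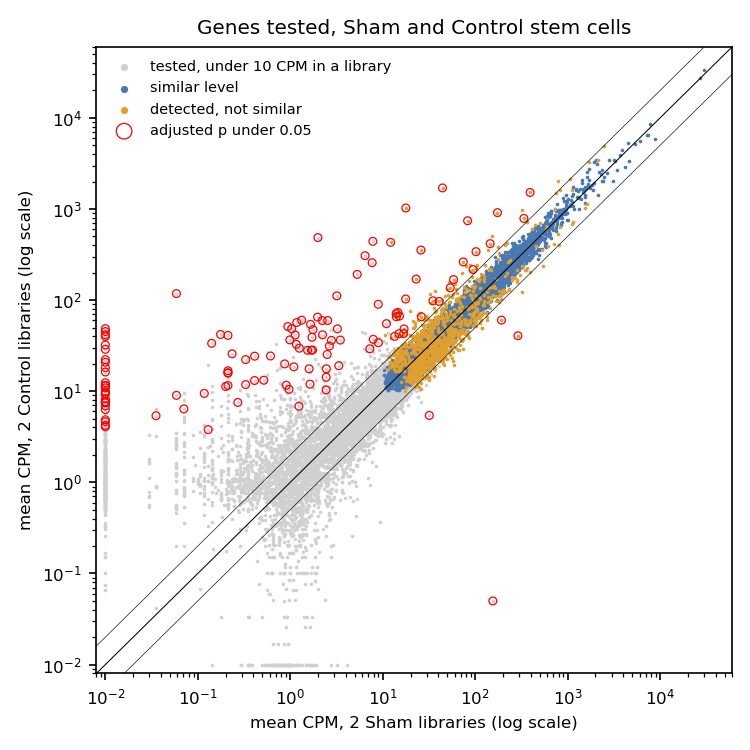
Mean CPM of the 2 Sham libraries against the mean of the 2 Control libraries on log axes, 1 point per gene. Drawn are 14122 of the 15231 genes tested, those with a count that reached 1 CPM in a library or were on a gene list. Means under 0.01 CPM are drawn at 0.01, and lines mark equality and 2-fold. Similar genes (blue) follow the diagonal, and the 128 genes that passed the test (red circles) lie mostly above it and at low Sham levels.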

How the data were processed

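The 4 baseline HFSC libraries were SMART-Seq v4 cDNA in Nextera XT libraries, per the labels' protocols, a chemistry that does not mark strand. The authors deposited read counts per gene name, made with featureCounts 1.6.1 over exons of mm10 at a minimum mapping quality of 30 without a strand setting, per the file headers. Each deposited file also gives the exon length of a gene, used here for levels per kilobase. Trim Galore 0.4.1, STAR 2.5.3 and DESeq2 1.22.2 are listed as tools, per the submitters' processing notes. Antisense and overlapping genes cannot be told apart, and genes with near-identical copies (ribosomal protein, ferritin, Krt6 and metallothionein genes among others) are uncertain.

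The 10 HFSC files were joined by gene name, and 27 names turned into dates in 2 files were restored from the coordinates of the same line. CPM and TMM scaling came from edgeR 4.0.16 (R 4.3.3) over these 10 libraries. Control was tested against Sham in a model with a mean per group and the quasi-likelihood test, with filterByExpr and Benjamini-Hochberg adjustment over 15231 genes at a threshold of 0.05. The biological coefficient of variation was 38.7% on 5 residual degrees of freedom. The 95% interval of a difference came from the F statistic. The p-values measure only the spread between these libraries. The 8 libraries of dermal papilla cells were not used.

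Members, gene lists (97 lists, 1808 genes) and rules were chosen with earlier results of these data known. Named were the 20 highest similar genes per kilobase, leaving out mitochondrial, predicted, Rik and Mir genes, and in each class the 12 highest similar and 4 highest other detected genes. The rule added all stem cell markers, the 4 highest genes of each further class, 2 defining markers of each other cell type, and the 4 genes per direction with the smallest p at a mean of at least 10 CPM. Alternatives were DESeq2 1.42.0, median-of-ratios scaling, plain CPM, other limits, no filter, a fit of the 4 libraries, a replicate block and each library left out. A few genes that these rules select are not reported here. The steps were tested on simulated counts. Counts without molecular identifiers are not independent molecules.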

Additional observations from a re-analysis of the deposited data

How the results depend on the processing

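Similar genes numbered 7613 with median-of-ratios scaling, 7321 with plain CPM, 8288 and 6205 at a minimum of 5 and 20 CPM, and 7925 to 8440 with a library left out, beside 7603. With a ratio limit of 1.5 they numbered 4408 in all, 43 secreted, 61 receptor and 101 transcription factor genes. Secreted genes were 143 in the Sham and 148 in the Control libraries alone, an alternative chosen after seeing the data, which by construction compares fewer libraries.

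Control against Sham gave 501 calls (415 higher, 86 lower) without the filter and 406 (349 higher, 57 lower) with DESeq2, of which 128 and 125 were among the 128 calls reported. It gave 154 calls in a fit of the 4 libraries, 114 of them shared. Leaving out a library gave 76 to 106 calls, with 70 to 104 higher and 2 to 9 lower, 76 without Sham 1. Bounded genes then numbered 3968 to 5467 beside 6342, 3968 without Sham 2 and 4111 without Control 1. The spread of a group left with 1 library was taken from the other groups. The cause of these changes was not tested. With the replicate block there were 110 calls (105 higher, 5 lower) and 6270 bounded genes. Deviations from the group means in Sham 1 and Control 1 had a correlation of 0.02. That value does not bear on pairing of replicates within either experiment. Spon2 stood at an adjusted p of 0.118 without Sham 2, 0.182 without Control 1 and 0.198 without Control 2, and Wnt3 at 0.0770 and 0.146 without Sham 2 and Control 2. Without Sham 2 the mean level of Spon2 moved from 165 to 90.9 CPM and that of Wnt3 from 18.7 to 10.4 CPM.

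With 2 libraries a group, a difference that misses the threshold does not show equality. The group contrast also carries strain, tamoxifen, operation and the sex chromosomes of the cells.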

Other observations

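In the comparison of Control with Sham, Y-linked and immune genes were not alone above the rest. The nuclear receptor gene Nr4a1, an immediate early gene, had 107 and 97.7 CPM in Sham and 333 and 347 in Control (adjusted p = 0.00712, edgeR), and the microfibril gene Mfap2 had 21.1 and 31.1 against 57.5 and 74.1 CPM (adjusted p = 0.0362). Klf15, a glucocorticoid-responsive regulator, had 56.7 and 63.8 against 181 and 121 CPM without passing the test (adjusted p = 0.201). The clock repressor Nr1d1 had 156 and 121 against 345 and 365 CPM and did not pass either (adjusted p = 0.397). These genes were chosen after their values were seen.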
